A study of Mus musculus with 6 samples.

Results

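The 8 genes examined here make, sense or remove extracellular ATP, NAD, adenosine or a signalling lipid, and their RNA was measured in mouse CD8 T cells. They are Entpd1, Nt5e, Ada, Art2b, P2rx4, P2rx7, P2ry10 and Adora2a, chosen by name as genes of the response to extracellular ATP and adenosine. All 8 are listed among the 17744 genes of the deposited expression table, and all 8 were among the 10655 genes tested, which had at least 1 FPKM (fragment counts normalised to gene length and to the size of the library) in at least 3 libraries. The libraries came from splenic cells sorted as CD45+ CD3+ CD8a+ and sequenced without culture: 3 control libraries, with wt in the genotype field and control as treatment, and 3 ultrasound libraries, with focused ultrasound irradiation in both fields. Focused ultrasound concentrates sound waves on a tissue, and the series names the spleen as its target. Strain, age, sex, ultrasound dose and the interval before the spleen was taken are not given in the sources used here. Nor do the labels say whether the 3 replicates of a group are separate animals, so p-values measure only the spread between these libraries, which may be technical.

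ATP and NAD leak from stressed or dying cells and act on neighbouring cells as danger signals. The ectoenzyme CD39, encoded by Entpd1, cuts ATP and ADP to AMP, and CD73, encoded by Nt5e, cuts AMP to adenosine. Adenosine then acts through the adenosine receptor encoded by Adora2a, which raises cyclic AMP and dampens T cell activation, until adenosine deaminase, encoded by Ada, turns it into inosine. ATP itself opens the ion channels P2X4 and P2X7, and in mouse T cells the ecto-ADP-ribosyltransferase ART2.2, encoded by Art2b, uses NAD to lock P2X7 open.

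The 6 libraries held 35024080 to 38113103 recovered reads. Ultrasound 1 lay between the controls and the other ultrasound libraries on the first principal component, which held 70.8% of the variance. The 10 CD8 T cell markers, Cd8a, Cd8b1 and the CD3 chains among them, summed to 2845 to 3004 FPKM in controls and 2486 to 3319 in ultrasound libraries, and none of them differed by limma. Genes of other cells were also present. The 13 macrophage and monocyte markers summed to 816 to 1211 FPKM in controls and to 2324, 2560 and 3944 in ultrasound 1, 2 and 3, with 5 of 13 higher by limma and 10 of 13 above all controls. Of the 10 neutrophil markers, 4 were higher by limma and 9 lay above all controls, with sums of 183 to 565 FPKM in controls and 2242, 633 and 667 in ultrasound 1, 2 and 3. B cell markers summed to 253 to 392 FPKM in controls, 189 in ultrasound 1, and 976 and 846 in ultrasound 2 and 3, and 0 of 10 passed the test. Dendritic cell markers, of which 0 of 4 passed, summed to 23.3 to 49.4 FPKM in controls, 29.1 in ultrasound 1, and 83.2 and 76.2 in ultrasound 2 and 3. NK cell markers summed to 58.1 to 68.5 FPKM in controls and to 49.3, 95.5 and 77.4 in ultrasound 1, 2 and 3, and 1 of 5, Klrb1c, was higher by limma. Most of each sum came from Eomes and Prf1, so the sums mainly follow these genes and are not a measure of NK cells alone. Eomes measured 32.0 to 39.9 FPKM in controls and 19.6, 31.7 and 24.3 in ultrasound 1, 2 and 3. Prf1 measured 22.2 to 24.3 FPKM in controls and 21.2, 38.5 and 30.7 in ultrasound 1, 2 and 3. Ncr1, a defining NK cell receptor, was at most 0.228 FPKM in controls and measured 0.533, 5.85 and 5.05 in ultrasound 1, 2 and 3. The part of these cells in the differences of ultrasound 2 and 3 given below was not tested. No marker of any of the 9 lists was at 0 in all 6 libraries. Control 1 had the highest macrophage and neutrophil sums of the 3 controls. In bulk samples, fewer cells of a type and less RNA per cell cannot be told apart.

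**Figure D1:**
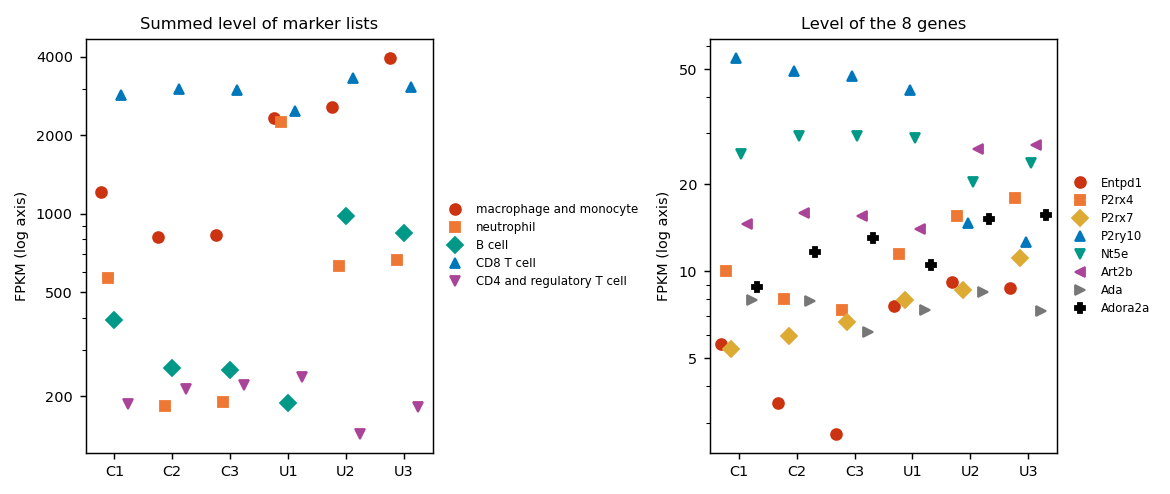
Left, summed FPKM of 5 marker lists in each of the 3 control (C) and 3 ultrasound (U) libraries, on a log axis; right, FPKM of the 8 purinergic genes in the same libraries, on a log axis, with points shifted sideways for legibility. Macrophage sums are 2324 FPKM or more in all 3 ultrasound libraries, neutrophil sums peak in U1 at 2242, and B cell sums are 976 and 846 in U2 and U3 against 392 or less elsewhere.

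Entpd1 was the only one of the 8 genes to pass the test, and it rose in the ultrasound libraries. The ATP-gated channels P2rx4 and P2rx7 were higher in each ultrasound library than in any control, and P2ry10, a receptor for lysophosphatidylserine, was lower in each, but these 3 missed the threshold. Nt5e, Ada, Art2b and Adora2a overlapped between groups. Across all genes tested, limma on log2(FPKM + 1) with Benjamini-Hochberg adjustment over all 10655 genes called 8.11% at 0.05, 6.55% higher and 1.56% lower, against 1 of 8 here, which was higher. Entpd1, P2rx4 and P2ry10, 3 of the 8, have in the authors' deposited table a q under 0.05, as do 12.3% of all genes. Of the 8 genes, 3 lay above and 1 below all controls without overlap, while 34.8% of all genes did so, 25.9% above and 8.96% below. Because 1 is added to each FPKM before the log, changes of weakly expressed genes are understated. The median log2 change of the 8 genes was 0.38, with 6 of 8 positive, and that of all tested genes was 0.09. With median-of-ratios scaling the median of all genes moved to -0.02, and that scaling called 0 of the 8 and 4.39% of all genes.

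**Figure D2:**
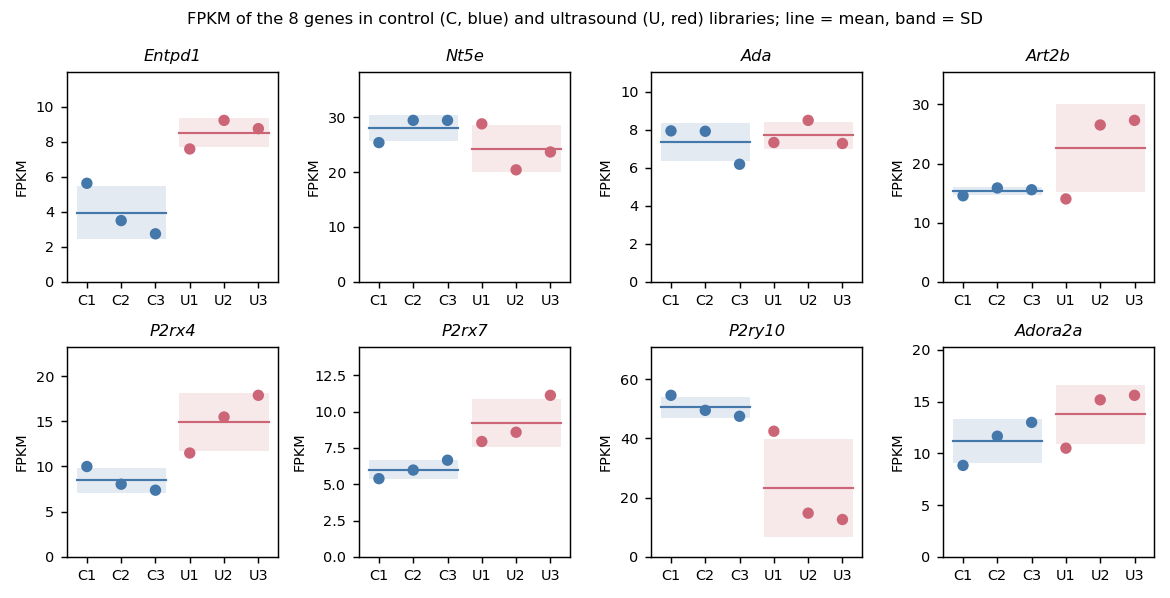
FPKM of each of the 8 genes in the 3 control and 3 ultrasound libraries, one panel per gene with its own axis from 0; points are single libraries, lines group means and bands 1 SD either side. Entpd1 runs from 2.74 to 5.62 FPKM in controls and from 7.58 to 9.22 in ultrasound libraries, and P2ry10 is at 14.7 and 12.6 in ultrasound 2 and 3 against 47.5 or more in controls.

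Entpd1 (NCBI Gene 12495, GRCm38.p6 chr19:40612366-40741602, plus strand) is the enzyme that starts the breakdown of extracellular ATP. It has 2 annotated start sites in RefSeq. The bases just before each, read 5′ to 3′ on the plus strand, are shown because this is the gene that changed, at chr19:40612116-40612365 and chr19:40659520-40659769. Capitals mark CGTCA, the reverse complement of TGACG, the core of the cyclic AMP response element.
Entpd1 start 1: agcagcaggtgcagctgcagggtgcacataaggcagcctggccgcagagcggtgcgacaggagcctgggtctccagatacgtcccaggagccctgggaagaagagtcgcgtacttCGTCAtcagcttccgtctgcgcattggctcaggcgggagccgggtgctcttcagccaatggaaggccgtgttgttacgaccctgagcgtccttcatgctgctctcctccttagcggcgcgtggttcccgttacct
Entpd1 start 2: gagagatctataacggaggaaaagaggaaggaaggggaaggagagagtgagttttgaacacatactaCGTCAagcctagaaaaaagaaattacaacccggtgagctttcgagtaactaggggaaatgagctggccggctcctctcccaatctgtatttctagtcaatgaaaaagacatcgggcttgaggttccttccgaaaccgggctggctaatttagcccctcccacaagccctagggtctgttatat
Each stretch held 1 such match. The core TGACG, on either strand, occurred in 20.8% of 32851 RefSeq promoter windows of 300 bases, and in 5 of the 10 windows found for 7 of these 8 genes. The full element TGACGTCA was in 1.79% of all windows and in 0 of the 10. A match is a description of letters and not a binding site.

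In controls 1, 2 and 3, Entpd1 measured 5.62, 3.495 and 2.74 FPKM, and in ultrasound 1, 2 and 3 it measured 7.58, 9.22 and 8.74. All 3 ultrasound libraries exceeded all 3 controls, and control 1 was the highest control. Its mean went from 3.95 ± 1.5 to 8.51 ± 0.840 FPKM (SD over 3 libraries each), for a log2 change of 0.98 with a standard error of 0.21, a 95% interval of 0.47 to 1.49 and a limma adjusted p of 0.0433. These values rest on 480 to 1716 reads per library. Without ultrasound 1, where 53.6% of all genes were called, the limma adjusted p was 0.0169. Without control 1 it was 0.0158, while leaving out any of the other 4 libraries gave 0.143 to 0.184. Median-of-ratios and upper-quartile scaling gave adjusted p of 0.0617 and 0.0544. In the authors' deposited table its log2 fold change is 0.98 with q 0.00684. Entpd1 is also expressed by macrophages, neutrophils and B cells. Macrophage markers moved with it, at 816 to 1211 FPKM summed in controls and 2324 to 3944 in ultrasound libraries, and control 1 was highest among controls in both. CD4 and regulatory T cell markers, of which 0 of 8 passed, summed to 186 to 221 FPKM in controls. In ultrasound 1, 2 and 3 they summed to 236, 143 and 181. Much of these sums was Ctla4, at 81.5 to 88.8 FPKM in controls and 76.8, 14.4 and 15.8 in ultrasound 1, 2 and 3. Cd4 measured 41.5 to 59.8 FPKM in controls and 55.8, 57.2 and 74.6 in ultrasound 1, 2 and 3. Of the 8 markers, 5 had a positive log2 change, so the lower sums do not describe the list as a whole. The part of any of these cells in the result was not tested.

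Nt5e (NCBI Gene 23959, chr9:88327609-88372089), the enzyme that acts next, did not pass the test. It measured 25.4, 29.5 and 29.4 FPKM in the controls, against 28.8, 20.4 and 23.7 in the ultrasound libraries. Ultrasound 1 lay within the control range and the other 2 ultrasound libraries below it. The log2 change was -0.21 with a standard error of 0.14, a 95% interval of -0.54 to 0.12 and a limma adjusted p of 0.317. Without ultrasound 1, where 53.6% of all genes were called, it was -0.34 with limma adjusted p 0.0234. Within each library, the ratio of Entpd1 to Nt5e FPKM was 0.222, 0.119 and 0.0930 in the controls and 0.263, 0.451 and 0.369 in the ultrasound libraries. All 3 ultrasound ratios exceeded all 3 control ratios, with control 1 nearest to ultrasound 1. Entpd1 by itself was above all controls in every ultrasound library, so the ratio largely repeats that difference. The part in this ratio of other cells that express Entpd1 was not tested.

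Ada (NCBI Gene 11486, chr2:163726571-163750239), which deaminates adenosine, measured 7.95, 7.92 and 6.19 FPKM in controls and 7.33, 8.50 and 7.28 in ultrasound libraries. The ranges overlapped, with control 3 the lowest and ultrasound 2 the highest of the 6. Its log2 change was 0.06 with a standard error of 0.12, a 95% interval of -0.23 to 0.36 and a limma adjusted p of 0.735, and the sign turned to -0.05 with median-of-ratios scaling.

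Of 14 other nucleotide ectoenzymes and ATP release genes listed, 12 were in the table, 8 were tested and 0 were called by limma; their median log2 change was 0.26. Entpd7, an intracellular relative of CD39, had a log2 change of 0.37 with limma adjusted p 0.0734. For Panx1, a channel that releases ATP, it was 0.26 with adjusted p 0.215, and for Enpp1, which hydrolyses ATP directly to AMP, 0.26 with adjusted p 0.219. Entpd5 and Entpd6, enzymes acting mainly on nucleoside diphosphates, stood at -0.19 and 0.27 with limma adjusted p of 0.234 and 0.155.

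Among genes for adenosine and purine turnover, 12 were listed, 10 tested and 1 called. Ampd3, an AMP deaminase that diverts AMP to IMP inside the cell, measured 3.18, 2.54 and 2.83 FPKM in controls and 6.08, 6.90 and 8.37 in ultrasound libraries. All 3 ultrasound libraries lay well above all controls, and Ampd3 rose by 1.07 on the log2 scale with a standard error of 0.14 and a limma adjusted p of 0.0297. Pnp, the phosphorylase that acts on inosine after Ada, had 16.2 to 19.4 FPKM in controls and 22.1 to 28.4 in ultrasound libraries, which did not overlap, with a log2 change of 0.40 and limma adjusted p 0.0953. Dpp4, the surface protein CD26 that binds adenosine deaminase in humans, stood at 28.3 to 29.5 FPKM in controls and 18.9 to 25.7 in ultrasound libraries, a log2 change of -0.38 with limma adjusted p 0.0924. Adenosine kinase, Adk, stood at -0.04 on the log2 scale with limma adjusted p 0.836. The nucleoside transporters Slc29a1 and Slc28a2 stood at 0.22 and -0.19 with limma adjusted p of 0.192 and 0.230.

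**Figure D3:**
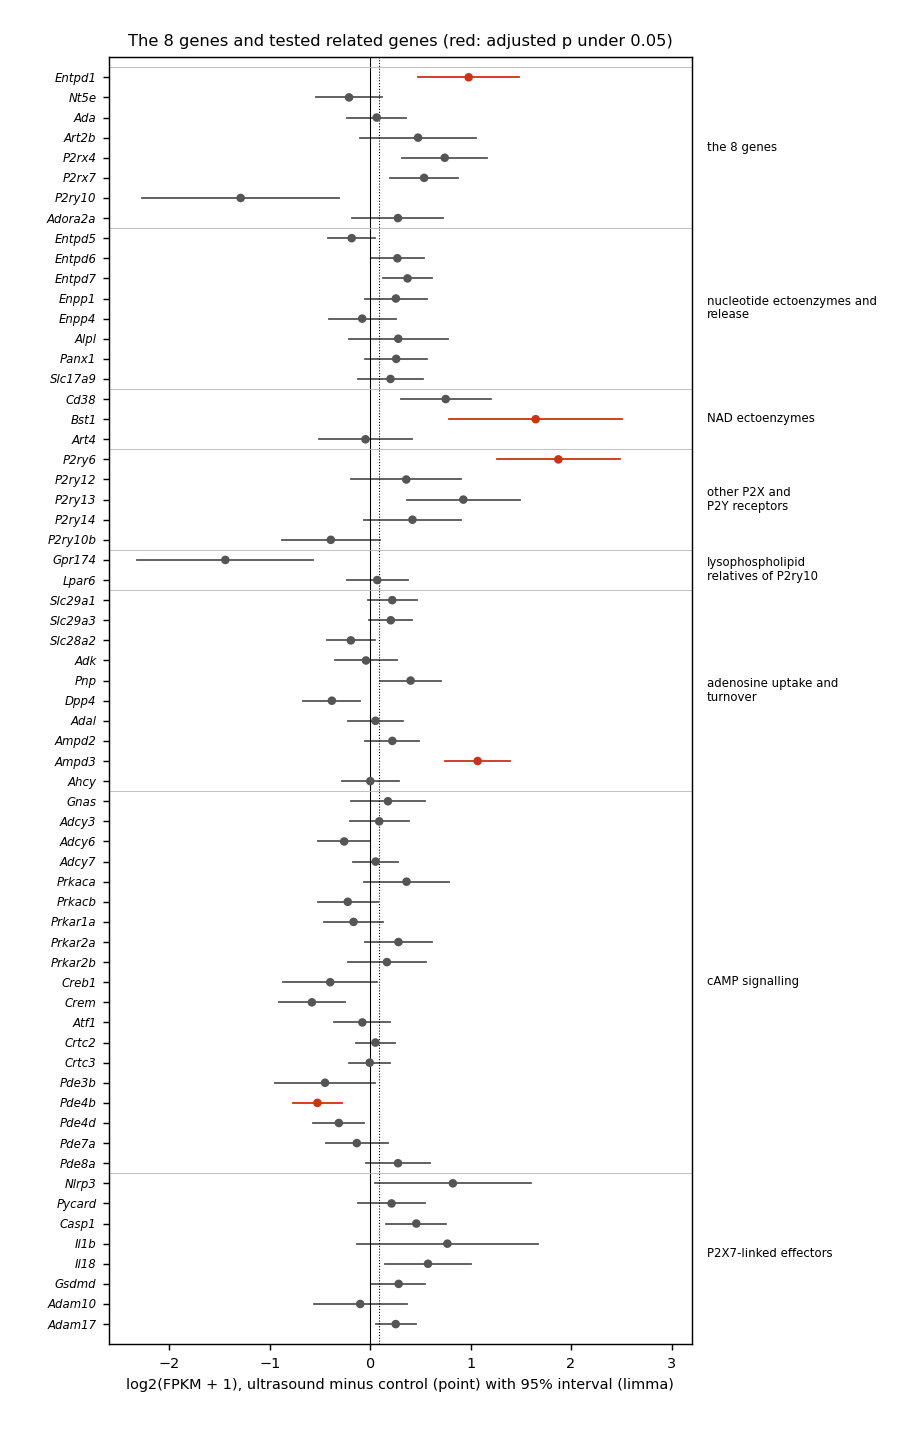
Log2 change, ultrasound over control, of the 8 genes and of the tested related genes grouped by list, with 1 tested gene not shown, on the log2(FPKM + 1) scale, with 95% intervals; the dotted line is the median of all genes, 0.09, and red marks an adjusted p under 0.05. Only Entpd1 of the 8 passed an adjusted p of 0.05; among 56 related genes tested Bst1, P2ry6 and Ampd3 were higher and Pde4b was lower.

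Art2b (NCBI Gene 11872, chr7:101575729-101585591) carries the NAD arm of the response. It measured 14.5, 15.9 and 15.6 FPKM in controls and 14.01, 26.5 and 27.3 in ultrasound 1, 2 and 3. Ultrasound 1 was below all controls, while the other 2 ultrasound libraries were above all of them. The log2 change was 0.48 with a standard error of 0.24, a 95% interval of -0.10 to 1.05 and a limma adjusted p of 0.219. Without ultrasound 1, where 53.6% of all genes were called, it was 0.77 with limma adjusted p 0.000416. Of 2770 windows of 50 bases in its transcripts, 5.78% also occur in other genes, mostly Art2a-ps, so reads from such copies leave its level uncertain.

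Of 7 other NAD ectoenzymes listed, 3 were tested and 1 was called. Bst1, an ADP-ribosyl cyclase of myeloid and stromal cells, measured 2.68, 0.953 and 1.21 FPKM in controls and 11.8, 4.54 and 5.87 in ultrasound libraries. Every ultrasound value was above every control, with ultrasound 1 the highest, as for the summed neutrophil markers (2242 FPKM in ultrasound 1 against 633 and 667). Most of that sum in ultrasound 1 came from S100a8, S100a9 and Ngp, at 725, 886 and 405 FPKM. Mmp9, Cxcr2 and Csf3r were lowest in ultrasound 1 among the ultrasound libraries, and the other neutrophil markers were highest there. Bst1 rose by 1.65 on the log2 scale with a standard error of 0.36 and a limma adjusted p of 0.0442, and the part of neutrophil RNA in this was not tested. Its adjusted p was 0.0611 with median-of-ratios factors, 0.0544 with upper-quartile factors and 0.0519 with voom on recovered reads, so its call did not hold under these. Cd38, which consumes NAD at the surface of many lymphocytes and myeloid cells, stood at 6.96 to 10.2 FPKM in controls and 11.2 to 16.2 in ultrasound libraries, a log2 change of 0.75 with limma adjusted p 0.0575.

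P2rx4 and P2rx7 are neighbouring channel genes on chromosome 5. P2rx7 (NCBI Gene 18439) spans chr5:122643927-122692336 and P2rx4 (NCBI Gene 18438) chr5:122707518-122729739, both on the plus strand, with 15.2 kb between them. The 224 bases before the P2rx4 start, chr5:122707294-122707517, are shown because both genes lay above all controls in every ultrasound library; capitals again mark CGTCA, found in 2 places.
P2rx4: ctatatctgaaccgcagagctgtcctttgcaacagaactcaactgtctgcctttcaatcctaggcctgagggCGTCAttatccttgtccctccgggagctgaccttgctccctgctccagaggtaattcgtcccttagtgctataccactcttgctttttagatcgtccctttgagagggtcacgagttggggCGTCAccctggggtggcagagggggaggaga
P2rx4, a channel opened by ATP, measured 9.996 FPKM in control 1, 8.03 in control 2 and 7.37 in control 3, and 11.5, 15.5 and 17.9 in ultrasound 1, 2 and 3. The groups did not overlap, but ultrasound 1 was closer to control 1 than to ultrasound 2. The log2 change was 0.74 with a standard error of 0.18 and a 95% interval of 0.32 to 1.17. Its limma adjusted p was 0.0527, just above the threshold. Without ultrasound 1, where 53.6% of all genes were called, the log2 change was 0.91 with limma adjusted p 0.00158. In the authors' deposited table P2rx4 has a log2 fold change of 0.70 with q 0.0212.

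P2rx7, the low-affinity ATP channel that can open a large pore, measured 5.39, 5.98 and 6.66 FPKM in controls and 7.95, 8.59 and 11.1 in ultrasound libraries. All ultrasound values were above all controls. Its log2 change was 0.54 with a standard error of 0.14, a 95% interval of 0.20 to 0.88 and a limma adjusted p of 0.0661. Without ultrasound 1, where 53.6% of all genes were called, it was 0.63 with limma adjusted p 0.00587. Within libraries the ratio of P2rx4 to P2rx7 FPKM was 1.86, 1.34 and 1.11 in controls and 1.45, 1.80 and 1.61 in ultrasound libraries, so the ranges of this ratio overlapped. Macrophages also express both channels, and the macrophage marker sums given above were likewise higher in every ultrasound library than in any control. Control 1 had the highest of these sums among controls, and was the highest control for P2rx4 but the lowest for P2rx7. The part of macrophages was not tested.

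Of 9 genes linked to P2X7 signalling, all were tested and 0 were called by limma, with a median log2 change of 0.28. Of the 9, 4 lay above all controls, where 25.9% of all genes tested did so. Casp1, the protease that cleaves pro-interleukin-1β, had 15.2 to 18.8 FPKM in controls and 22 to 27.5 in ultrasound libraries, a log2 change of 0.46 with limma adjusted p 0.0696. Nlrp3, the sensor of the inflammasome, stood at a log2 change of 0.82 with adjusted p 0.146, and Il1b, the cytokine matured by caspase-1, at 0.77 with adjusted p 0.210; control 1 was the highest control for both. Adam17, a protease that sheds surface proteins, stood at 0.25 on the log2 scale with limma adjusted p 0.104.

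P2ry10 (NCBI Gene 78826, chrX:107088492-107104974, plus strand) encodes a receptor for the lipid lysophosphatidylserine rather than for a nucleotide. It is the most abundant of the 8 genes in controls and the one with the largest difference. The 250 bases before its first start, chrX:107088242-107088491, are shown because of that difference, with a match to TGANTCA, the AP-1 motif, in capitals. Such a match is in 7.81% of all promoter windows and in 3 of the 10 windows found for these genes. Those 3 belong to P2rx7, Art2b and P2ry10.
P2ry10 start 1: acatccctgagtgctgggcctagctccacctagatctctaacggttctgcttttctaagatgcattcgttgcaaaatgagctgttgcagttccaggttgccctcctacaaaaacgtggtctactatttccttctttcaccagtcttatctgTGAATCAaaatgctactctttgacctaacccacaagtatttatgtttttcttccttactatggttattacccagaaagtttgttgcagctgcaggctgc
P2ry10 measured 54.5, 49.5 and 47.5 FPKM in controls and 42.4, 14.7 and 12.6 in ultrasound 1, 2 and 3, on 1383 to 5551 reads per library. All ultrasound values lay below all controls, ultrasound 1 only slightly and the other 2 far below. The mean went from 50.5 ± 3.65 to 23.2 ± 16.6 FPKM (SD over 3 libraries each), for a log2 change of -1.29 with a standard error of 0.41, a 95% interval of -2.27 to -0.31 and a limma adjusted p of 0.0972. Without ultrasound 1, where 53.6% of all genes were called, the log2 change was -1.81 with limma adjusted p 5.98e-05. Ultrasound 1 alone differed from the controls by -0.24 on the log2 scale. In the authors' deposited table P2ry10 has a log2 fold change of -1.24 with q 0.0375.

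Its X-linked neighbours are P2ry10b, 44.0 kb away, and Gpr174, another lysophosphatidylserine receptor, 82.2 kb from P2ry10b. P2ry10b measured 3.45, 3.21 and 3.45 FPKM in controls and 3.61, 1.97 and 1.70 in ultrasound libraries, a log2 change of -0.39 with limma adjusted p 0.227. Gpr174 measured 21.9, 24.1 and 20.9 FPKM in controls and 14.6, 6.84 and 4.13 in ultrasound libraries, a log2 change of -1.44 with a standard error of 0.37 and a limma adjusted p of 0.0595. For Gpr174 all ultrasound libraries lay below all controls, whereas for P2ry10b ultrasound 1 was the highest of the 6. The ratio of P2ry10 to P2ry10b was 13.8 to 15.8 in controls and 11.8, 7.49 and 7.41 in ultrasound libraries. Of the 2839 windows of 50 bases in P2ry10, 3.98% also occur in P2ry10b, so a small share of reads could be assigned to either.

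**Figure D4:**
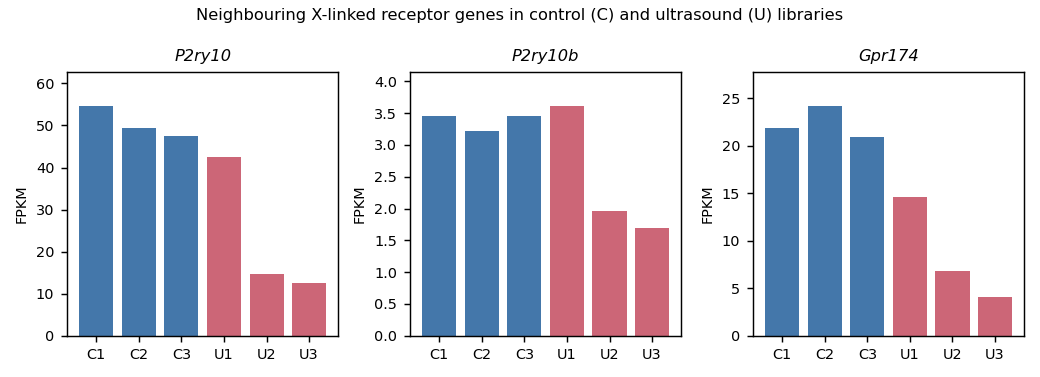
FPKM of P2ry10, P2ry10b and Gpr174, neighbouring genes of the X chromosome, in the 3 control (C) and 3 ultrasound (U) libraries; bars are single libraries and start at 0. P2ry10 and Gpr174 are lower in all 3 ultrasound libraries, and P2ry10b is lower in U2 and U3 only.

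Of 13 other P2X and P2Y receptor genes listed, 10 were in the table, 5 were tested and 1 was called. P2ry6, the UDP receptor that is prominent on macrophages, measured 2.08, 0.840 and 0.980 FPKM in controls and 5.70, 6.51 and 9.97 in ultrasound libraries. It was above all controls in every ultrasound library and rose by 1.87 on the log2 scale, with a standard error of 0.26 and a limma adjusted p of 0.0297. P2ry13, an ADP receptor, had 2.28 to 4.86 FPKM in controls and 5.89 to 8.42 in ultrasound libraries, a log2 change of 0.93 with limma adjusted p 0.0601. Lpar6, a lysophosphatidic acid receptor and a relative of P2ry10, stood at 0.07 with adjusted p 0.719.

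Adora2a (NCBI Gene 11540, chr10:75316877-75334792) encodes the main adenosine receptor of T cells. It measured 8.83, 11.7 and 12.99 FPKM in controls and 10.5, 15.2 and 15.6 in ultrasound libraries. The groups overlapped, with ultrasound 1 inside the control range and the other 2 above it. Its log2 change was 0.28 with a standard error of 0.19, a 95% interval of -0.18 to 0.73 and a limma adjusted p of 0.339. Without ultrasound 1, where 53.6% of all genes were called, it was 0.45 with limma adjusted p 0.0407. The other adenosine receptors, Adora1, Adora2b and Adora3, did not pass the filter on low values and were not tested; Adora2b, the low-affinity receptor, was at most 0.230 FPKM in controls and 0.550 to 1.71 in ultrasound libraries.

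Downstream of adenosine receptors, 22 genes of cyclic AMP signalling were listed, 19 tested and 1 called. Pde4b, a phosphodiesterase that breaks down cyclic AMP, measured 8.27, 7.33 and 7.28 FPKM in controls and 5.39, 4.62 and 4.96 in ultrasound libraries, with no overlap. Pde4b fell by 0.53 on the log2 scale, with a standard error of 0.10 and a limma adjusted p of 0.0340. Crem, a cyclic AMP-responsive transcription factor, stood at 1.43 to 1.98 FPKM in controls and 0.632 to 1.09 in ultrasound libraries, a log2 change of -0.58 with limma adjusted p 0.0519. Pde4d, Pde3b and Creb1 had log2 changes of -0.31, -0.45 and -0.40, with limma adjusted p of 0.111, 0.188 and 0.207. Gnas, the stimulatory G protein subunit, stood at 0.18 with adjusted p 0.445, and the median of the 19 genes was -0.08.

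Over all 84 related genes listed, 77 were in the table, 56 were tested, 3 were higher and 1 lower by limma, and 14 lay above and 6 below all controls. The median log2 change was 0.17. Leaving out control 2, control 3, ultrasound 2 or ultrasound 3 ended all 4 calls, and leaving out control 1 ended that of Pde4b, with limma adjusted p of up to 0.159 for P2ry6 and Ampd3, 0.161 for Pde4b and 0.185 for Bst1. These counts are to be read against 8.11% called and 34.8% not overlapping among all genes.

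FPKM is per length, so the levels of the 8 genes can be ordered within a group. In controls P2ry10, Nt5e and Art2b came first, each apart from the next in range, followed by Adora2a, P2rx4, Ada, P2rx7 and Entpd1, each overlapping its neighbour. In ultrasound libraries the means ran Nt5e, P2ry10, Art2b, P2rx4, Adora2a, P2rx7, Entpd1 and Ada, and every neighbouring pair overlapped. Entpd1 moved from last to ahead of Ada, whereas the mean of P2ry10, 23.2 FPKM, came behind that of Nt5e, 24.3. In ultrasound 1 P2ry10 was still ahead, at 42.4 FPKM against 28.8 for Nt5e. Among all tested genes, the mean control level of P2ry10 was at the 88.9th percentile and that of Entpd1 at the 26.0th.

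The genes closest in profile over the 6 libraries were found by the smallest root mean square difference of log2(FPKM + 1) after each gene's mean was removed. For Entpd1 they were Cfp, Tns3 and Hdc, at 0.0681 to 0.0800. For P2ry10 they were AI504432, Rpl22l1 and Rnf138, at 0.0698 to 0.120. P2rx4 lay nearest to Jup, Nqo2 and Rcan1, P2rx7 to Pofut2, Rarg and Gm46226, and Art2b to Zfp691, Kbtbd4 and Rbm14. Nt5e lay nearest to 3110056K07Rik, Gm20605 and Mipol1, Ada to Smc1a, Chtf18 and Eml4, and Adora2a to Ankrd13d, Dnd1 and Mrtfa.

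The result depended most on ultrasound 1. Without it, limma called 7 of the 8 genes, all but Ada, where 53.6% of all genes were called, and 30 of 54 related genes. Ultrasound 1 against the controls, with the spread shared over all libraries, gave 0 of 8, where 1.41% of all genes were called. Leaving out control 1 kept 1 of 8, while leaving out control 2, control 3, ultrasound 2 or ultrasound 3 gave 0 of 8 and no gene at all, with 4, 4, 3 and 3 of the 8 at an unadjusted p under 0.05. Entpd1, P2rx4, P2rx7 and P2ry10 kept their direction in 16 of 16 alternatives, Entpd1 with log2 changes of 0.80 to 1.21. The groups did not overlap for these genes, so leaving out a library or taking ultrasound 1 alone could not turn the sign. Filters, the robust option and the replicate block do not alter the log2 change. Most of the 16 could therefore not have changed the direction.

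**Figure D5:**
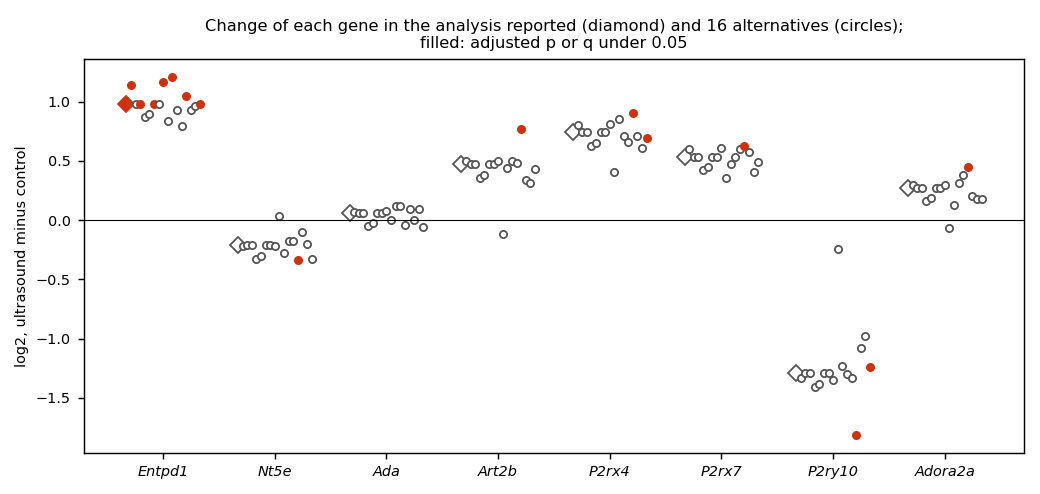
Log2 change of the 8 genes in the analysis reported (diamond) and 16 alternatives (circles), ultrasound over control; filled red symbols have an adjusted p or q under 0.05. Entpd1, P2rx4 and P2rx7 stay above 0 and P2ry10 below 0 in all 16, whereas Nt5e, Ada, Art2b and Adora2a change sign in at least 1. Most alternatives could not turn the sign of Entpd1, P2rx4, P2rx7 or P2ry10, whose groups do not overlap.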

How the data were processed

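RNA was extracted with TRIzol per the labels' protocols, and the library kit was VAHTS Universal, given as V5 in the extraction protocol and V6 in the design text. HISAT2, HTSeq, DESeq2, R 3.2.0 and mm10 are named in the submitters' processing notes, with no role or order. The authors' deposited table gives FPKM per gene and library. It also holds signal columns, the authors' means of normalized counts over all samples and per group. The authors' ratio (fold change), its log2, and the p-value and q-value are columns of the same deposited table.

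The table has no count column, so the test was limma 3.58.1 in R 4.3.3, with its trend and robust options, on log2(FPKM + 1), over all 10655 genes with at least 1 FPKM in at least 3 of 6 libraries, two-sided, with Benjamini-Hochberg adjustment and a threshold of 0.05. Groups came from the sample titles. Whole reads were recovered from the FPKM and the group means, with a largest relative deviation of 5.08e-09, and 100% of 52694 values under 500 reads lay within 0.05 of a whole number. The lowest chi-square between 2 libraries, divided by its degrees of freedom, was 22.1, so none was counted as a repeat of another. Coordinates, promoter windows and their sequences are from RefSeq (GRCm38.p6), and shared 50-base windows were counted in GENCODE M21 transcripts. A window was found for 7 of the 8 genes. Each printed stretch stops before the first annotated exon of its gene that overlaps the promoter window, and the stretch before start 2 of Entpd1 lies within the gene.

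The genes named are the 8, the related genes called or standing at the same step as one of them, and the 3 nearest profiles of each. The members and lists were chosen with earlier results of these data known. Of the listed genes, 1 is counted but not reported here. Alternatives covered the pseudocount, filters, scaling, the robust option, a replicate block, a separate term for ultrasound 2 and 3, voom on the reads recovered, the authors' values and each library left out. Tables and plots were made in Python 3.11.15 with pandas 2.3.3, numpy 2.4.6 and matplotlib 3.10.9.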

Additional observations from a re-analysis of the deposited data

Results flagged for a closer look

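Several related genes lay below the filter on low values and were left out of the test reported, yet all 3 ultrasound libraries were above all controls. Adora2b, the low-affinity adenosine receptor, had at least 0.550 FPKM in ultrasound libraries (38 to 111 reads) against at most 0.230 in controls (7 to 15 reads). Adora3, another adenosine receptor, had at least 0.0774 FPKM against at most 0.0717, on 7 to 15 and 2 to 6 reads. The ATP channel P2rx1 had at least 0.336 FPKM against at most 0.203, on 32 to 52 and 15 to 18 reads. P2ry1, an ADP receptor, had at least 0.308 FPKM against at most 0.196, on 45 to 70 and 12 to 27 reads. Adcy9, an adenylyl cyclase, had at least 0.149 FPKM against at most 0.0778, on 50 to 136 and 24 to 26 reads. Pde4a, a cyclic AMP phosphodiesterase, had at least 0.870 FPKM against at most 0.719, on 228 to 545 and 139 to 189 reads. With no filter on low values, limma called 0 of all 17744 genes and so 0 of the 77 related genes, with 27 of the 77 at an unadjusted p under 0.05. In the authors' deposited table q is 0.00126 for Adora2b, 0.00320 for Adcy9, 0.00903 for Pde4a, 0.0207 for P2ry1, 0.150 for P2rx1 and 0.294 for Adora3. The genes of this paragraph were picked because they lay above all controls. Among the genes tested, to which they do not belong, 25.9% lay above all controls. The share among genes below the filter was not computed.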

How the results depend on the processing

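Of the 8 genes, 1 was called in the analysis reported, and also with a pseudocount of 0.1, at least 1 FPKM in all 6 libraries, no robust option, or voom on recovered reads. Median-of-ratios factors, upper-quartile factors, no filter on low values and a term for ultrasound 2 and 3 each gave 0, with limma adjusted p for Entpd1 of 0.0617, 0.0544, 0.0793 and 0.193. At an unadjusted p under 0.05 they held 4, 4, 4 and 2 of the 8. Of all genes, limma called 4.39% with median-of-ratios factors, 5.78% with upper-quartile factors and 0% with no filter on low values. The authors' deposited table gave 3 of the 8, against 12.3% of all genes. Leaving out 1 library gave 0 to 7, the 7 without ultrasound 1. Related genes called were 4 in the analysis reported, 0 with no filter (27 at an unadjusted p under 0.05), 3 with median-of-ratios or upper-quartile factors, 2 with at least 1 FPKM in all 6 libraries, 1 with the term for ultrasound 2 and 3, and 18 in the authors' deposited table. Leaving out 1 library gave 0 to 30. The cause of these shifts was not tested.

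With the replicate number as a block, 0 of the 8 genes (5 at an unadjusted p under 0.05) and 0 related genes (18 at an unadjusted p under 0.05) were called by limma, with 0 of all genes and 3249 of them at an unadjusted p under 0.05. The deviations of libraries with the same number correlated at -0.04, 0.05 and 0.06 across genes, and not every library correlated best with its own number. With so few libraries per group these correlations cannot decide whether the numbers pair the samples, and the labels do not say.

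Some signs turned. With the term, which leaves ultrasound 1 against the controls, Nt5e stood at 0.0384, Art2b at -0.12 and Adora2a at -0.065 on the log2 scale. Ada stood at -0.0466 and -0.0199 with median-of-ratios and upper-quartile factors, at -0.0583 in the authors' deposited table, and at -0.0406 to 0.117 with 1 library left out.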
